A study of Arabidopsis thaliana with 16 samples.

Results

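Expressed non-coding RNA genes of Arabidopsis thaliana were followed in seedlings mutated in a pair of DNA methyltransferase genes and in wild-type seedlings grown under ultraviolet B (UV-B) light. The genes were chosen by their level: a nuclear entry of a non-coding type, other than a transposon or pseudogene, was kept when it reached 5 FPKM in at least 1 of the groups. FPKM is a fragment count divided by the length of the transcript and by the size of the library. Of 5600 nuclear entries of these types, 423 (7.55%) were kept, and both tables held 69252 entries in all. By type they comprised 168 of 287 small nucleolar RNAs (snoRNAs), 61 of 221 entries typed ncRNA and 55 of 1036 antisense long non-coding RNAs (lncRNAs). They further comprised 45 of 508 entries of the annotation type novel_transcribed_region, called transcribed regions from here on, 42 of 323 miRNA primary transcripts, 21 of 82 small nuclear RNAs (snRNAs) and 21 of 2436 other lncRNAs. The rest were 7 of 78 antisense RNAs, 2 of 625 tRNAs and 1 of 4 rRNAs. Because the levels in these same groups chose the genes, their values, ratios and calls are a description and support nothing further.

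The first group was dd in white light, a line of the Columbia-0 ecotype with the T-DNA mutations drm1-2 and drm2-2. The second was wild-type Col-0 under 1.5 mE of UV-B at 315 nm beside 60 mE of white light. The third, Col-0 in 60 mE of white light alone, served as the control of both comparisons. All plants were whole seedlings grown on agar with sucrose and frozen at day 10, with 2 biological replicates per group, which the deposited tables merge into 1 value per group. No spread between replicates can therefore be given, and the only test is the authors' own. Fewer cells expressing a gene and less RNA per cell cannot be told apart in whole seedlings. Libraries came from a stranded mRNA kit, which selects polyadenylated RNA. Most mature snoRNAs, snRNAs, tRNAs and rRNAs carry no such tail, so the values of these classes may not measure the mature RNAs. DRM2, which adds methyl groups to cytosines at sites marked by small RNAs, had 1.82 FPKM in dd against 7.09 in Col-0 (q = 0.0138 in the authors' deposited table). DRM1 had 0.319 FPKM in dd and was listed at 0 in both Col-0 groups, so it does not check the label. CHS, the entry enzyme of flavonoid synthesis and a well known UV-B response gene, had 941 FPKM under UV-B against 246 in white light (q = 0.00249 in the authors' deposited table).

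These RNAs work in different ways. Box C/D and H/ACA snoRNAs guide chemical modification of ribosomal RNA, snRNAs form the core of the spliceosome, and primary miRNA transcripts are cut by DCL1 into small RNAs that pair with messenger RNAs. TAS transcripts are cut by a miRNA, copied by RDR6 and diced by DCL4 into trans-acting siRNAs. Antisense lncRNAs are transcribed across protein-coding genes from the other strand, and some of them, at FLC for example, act in gene silencing. Polymerases IV and V make the non-coding transcripts that lead DRM2 to its target sites.

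Among entries alone at their locus, the smallest value read fell with length, once values all but at 0 were left out. Of the 423 genes, 230 were under 200 bp long and 193 were 200 bp or longer. Among entries of 60 to 89 bp that share their locus with no other entry, the lowest value above 0 was 81.1 FPKM in dd, 74.5 under UV-B and 25.3 in Col-0 white light. At 90 to 119 bp these lowest values were 23.8 FPKM in dd, 21.1 under UV-B and 7.56 in Col-0 white light. In each group, every such entry under 120 bp with a value above 0 was thus over the minimum. At 200 to 299 bp the lowest values were 0.853 FPKM in dd, 0.820 under UV-B and 0.297 in Col-0 white light, and at 1000 to 1999 bp they were 0.0468 FPKM in dd, 0.0440 under UV-B and 0.0154 in Col-0 white light. In each length class the dd and UV-B steps lay above the Col-0 white-light step. The part of these steps in the results for short genes was not tested. Members that share a locus could lie below them, such as AT1G05423 (82 bp) with 0.148 FPKM under UV-B. Short genes also shared values. Among short members above 0, 17 of 151 in dd, 10 of 149 under UV-B and 16 of 192 in Col-0 white light had the value of another entry of the same length. MIR8168 and the tRNA gene AT5G60285, both 81 bp long, each had 122.8 FPKM in dd, 0 under UV-B and 40.5 in Col-0 white light.

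**Figure D1:**
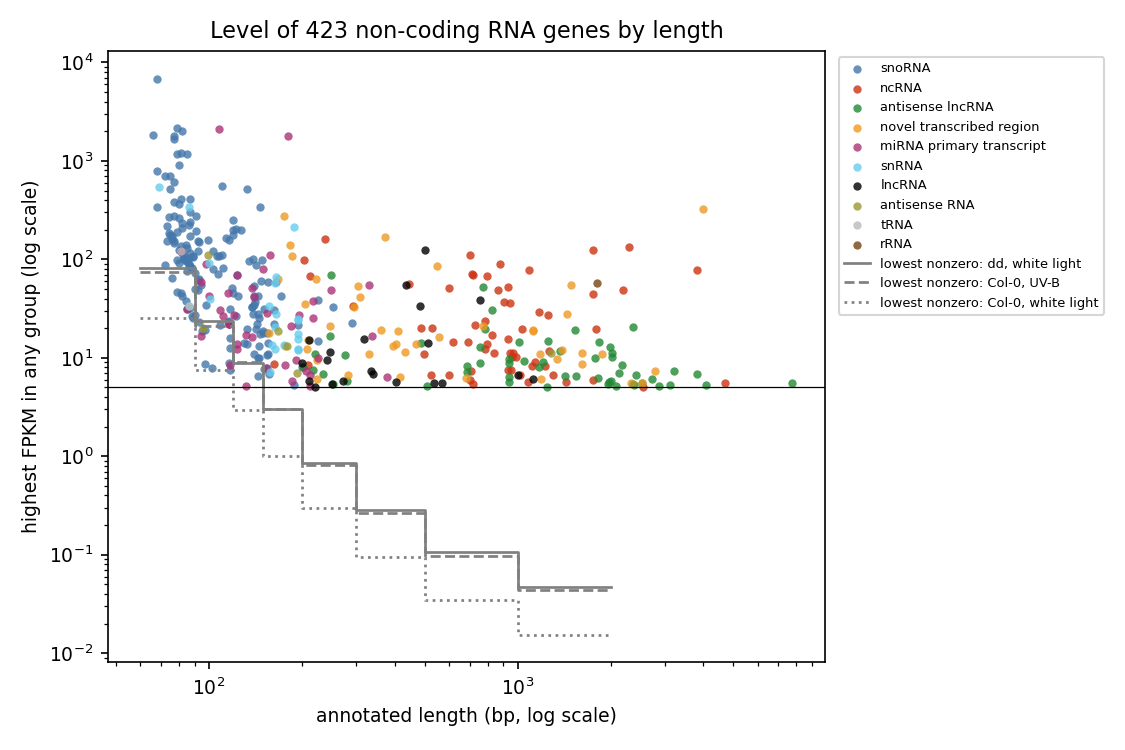
Highest FPKM of each of the 423 genes in any group (log scale) against its annotated length in bp (log scale), coloured by gene type. Grey steps give the lowest value above 0 among isolated entries of each length class in dd, under UV-B and in Col-0 white light. Values all but at 0 were left out of the steps, and the horizontal line marks 5 FPKM. The steps cross that line between 120 and 199 bp, and most snoRNA genes lie left of the crossing.

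Many members were read in part of the groups. Of the 423 genes, 212 reached 5 FPKM in all 3 groups. A further 47 did so only in dd, 25 only under UV-B, 51 only in Col-0 white light and 14 in dd and under UV-B but not in Col-0 white light, and 74 in Col-0 white light and 1 other group. Of the 14915 protein-coding genes at the same minimum, 92.3% reached it in all groups, 1.43% only in dd, 1.29% only under UV-B and 1.1% only in Col-0 white light. For the members these shares were 50.1% in all groups, 11.1% only in dd, 5.91% only under UV-B and 12.1% only in Col-0 white light. Values of 0 were listed for 81 genes in dd, 91 under UV-B and 41 in Col-0 white light. In all groups 281 genes (66.4%) were above 0, against 99.7% of the protein-coding genes. These were 180 of the 193 members of 200 bp or longer and 101 of the 230 shorter ones. The median length was 177 bp for the members and 2389 bp for the protein-coding genes. The 3 genes nearest above the minimum were AT3G59765 at 5.04 FPKM, AT1G06113 at 5.08 and AT2G35945 at 5.08. The 3 nearest below it were AT1G26208 at 4.97 FPKM, MIR169k at 4.93 and the U4 snRNA gene U4.7 at 4.93.

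Of the members, 373 were tested in dd and 50 were not, and the authors' deposited table called 3 higher and 2 lower at q under 0.05. Over all tested entries, 0.421% were called in this comparison, 0.264% higher and 0.157% lower. An unadjusted p under 0.05 was reached by 23 of the 373 members and by 3.71% of all tested entries. Under UV-B, 360 were tested and 63 were not, and the authors' deposited table called 2 higher and 5 lower. Of all tested entries 3.85% were called here, 2.04% higher and 1.81% lower, and 27 of the 360 members had an unadjusted p under 0.05, against 11.7% of all tested entries. Since the levels compared here also chose the members, nothing is read from these shares. The shares over all tested entries given here apply also to the counts of calls by type and by list below. Of the 12 called genes, 11 were over 200 bp long, and 11 shared their locus with no other entry.

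The genes called in dd were near or at 0 in 1 group and well above it in the other. The transcribed region AT3G00580 (chromosome 3, 11482162 to 11482710, TAIR10) had 85.4 FPKM in dd, 2.41 under UV-B and 1.92 in Col-0 white light. It rose in dd by 5.47 on the log2 scale (q = 0.0252 in the authors' deposited table), and its value under UV-B was close to that in white light. The ncRNA gene AT4G04223 (chromosome 4, 2036511 to 2037816) had 6.67 FPKM in dd, 0.306 under UV-B and 0.703 in Col-0 white light. It rose in dd by 3.24 on the log2 scale (q = 0.0138 in the authors' deposited table). The transcribed region AT4G09245 (chromosome 4, 17081275 to 17082468) had 6.15 FPKM in dd and was listed at 0 in both Col-0 groups, so no ratio is given (q = 0.0138 in the authors' deposited table). Only dd read this region at all among the 3 groups.

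Both genes that fell in dd were listed at 0 there. The ncRNA gene AT2G06002 (chromosome 2, 2330776 to 2331479) was listed at 0 in dd, with 5.28 FPKM under UV-B and 7.41 in Col-0 white light (q = 0.0138 for dd in the authors' deposited table). U2.5 (AT5G09585; chromosome 5, 2975014 to 2975208) was listed at 0 in dd, with 12.0 FPKM under UV-B and 24.6 in Col-0 white light (q = 0.0138 for dd in the authors' deposited table). U2.5 encodes a U2 snRNA, the RNA that pairs with the intron branch point. The other U2 genes among the members are near-identical copies, whose reads the counting could split, and none of them was listed at 0 in dd. Among those, U2.3 had 24.0 FPKM in dd, 3.07 under UV-B and 15.5 in Col-0 white light, and U2.11 had 128 FPKM in dd, 212 under UV-B and 141 in Col-0 white light.

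None of the 10 protein-coding genes nearest to the genes called in dd, 1 on each side, was past q 0.05 in the authors' deposited table. Over all tested entries 0.421% were called in dd, and the neighbours AT3G29645, AT4G36100 and AT4G04260 were near 0 in dd and in Col-0 white light. Nothing is therefore read from this count. AT4G04223 lies next to RLP46, a receptor-like protein gene, at 2.44 FPKM in dd against 1.95 in Col-0 white light. AT2G06002 lies next to FIP1, with 4.62 FPKM in dd against 5.37 in Col-0 white light. U2.5 lies next to the mitochondrial chaperone gene MTHSC70-2, with 19.0 FPKM in dd against 19.6 in Col-0 white light. The protein-coding gene nearest to AT3G00580 is AT3G29645, 971 bp away, an untested entry with 0.393 FPKM in dd and 0 in Col-0 white light. On its other side the nearest is PMAT2, an acyltransferase gene 45045 bp away, with 4.61 FPKM in dd against 3.82 in Col-0 white light. The transposon entry nearest to each of the 5 called genes was listed at 0 in all 3 groups. Its distance ran from 124 bp for AT3G00580 to 43953 bp for AT4G09245, and entries typed as transposon genes were left out. The share of all transposon entries at 0 was not computed, so nothing is read from these zeros.

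**Figure D2:**
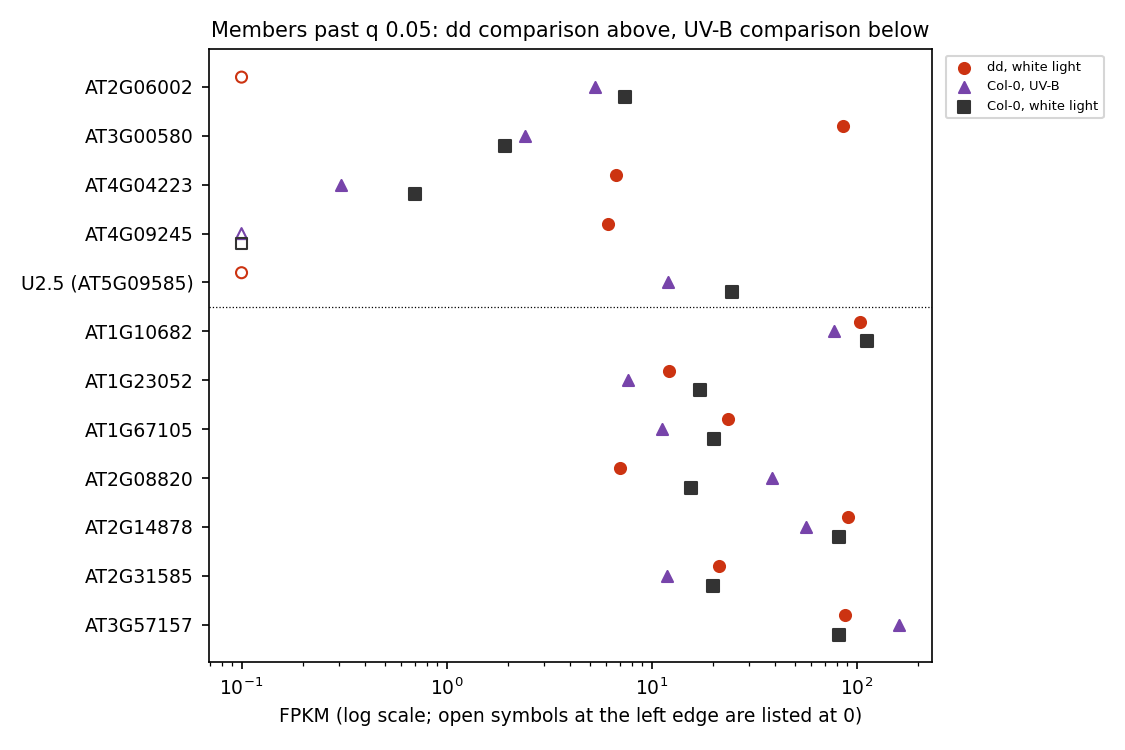
FPKM (log scale) of the 12 genes past q 0.05 in the authors' deposited tables, 1 pooled value per group, with circles for dd, triangles for Col-0 under UV-B and squares for Col-0 in white light. Open symbols at the left edge stand for values listed at 0. The upper 5 genes were called in the dd comparison and the lower 7 in the UV-B comparison, and the differences are wider in the upper part.

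Under UV-B, the called genes had values well above 0 in every group and smaller ratios. The lncRNA gene AT2G08820 (chromosome 2, 15403144 to 15403901) had 38.5 FPKM under UV-B against 15.4 in white light, a rise of 1.32 on the log2 scale (q = 0.00249 in the authors' deposited table). In dd it had 7.0 FPKM against 15.5 in Col-0, with an unadjusted p of 5e-04 and q = 0.0903 in the authors' deposited table. It was thus the highest under UV-B and the lowest in dd. A second entry overlaps its locus, and their reads may not be separable. The ncRNA gene AT3G57157 (chromosome 3, 21157011 to 21157247) had 161 FPKM under UV-B against 81.2 in white light, a rise of 0.99 on the log2 scale (q = 0.0115 in the authors' deposited table). Its value in dd was 88.1 FPKM. It lies next to NAP57, which encodes the pseudouridine synthase of H/ACA snoRNPs and had 35.2 FPKM under UV-B against 35.8 in white light.

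All 5 genes that fell under UV-B are typed ncRNA and lie alone at their loci. AT1G23052 (chromosome 1, 8168443 to 8169267) had 7.67 FPKM under UV-B against 17.0 in white light and fell by 1.15 on the log2 scale (q = 0.00249 in the authors' deposited table). AT1G67105 (chromosome 1, 25057479 to 25058264) had 11.3 FPKM under UV-B against 19.9 in white light (q = 0.0173 in the authors' deposited table), and 23.6 FPKM in dd. AT2G31585 (chromosome 2, 13446002 to 13446729) had 11.8 FPKM under UV-B against 19.7 in white light (q = 0.0225 in the authors' deposited table), and 21.3 FPKM in dd. The remaining 2 were abundant and differed by less. AT2G14878 (chromosome 2, 6392167 to 6393042) had 56.9 FPKM under UV-B against 81.6 in white light (q = 0.0493 in the authors' deposited table). AT1G10682 (chromosome 1, 3544913 to 3545614) had 77.5 FPKM under UV-B against 111 in white light (q = 0.041 in the authors' deposited table). AT5G07322 lay just beyond the threshold, with 36.2 FPKM under UV-B against 55.6 in white light (q = 0.0526 in the authors' deposited table).

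Of the 14 protein-coding genes nearest to the 7 genes called under UV-B, none passed q 0.05 in the authors' deposited table. Over all tested entries 3.85% were called under UV-B. The neighbours AT1G10680, AT2G36724, AT2G14870 and AT2G31590 were at or near 0 under UV-B and in white light, so nothing is read from this count. LBD40, a LOB-domain transcription factor gene next to AT1G67105, had 3.00 FPKM under UV-B against 2.34 in white light. CYP735A2, a cytokinin hydroxylase gene on its other side, had 2.01 FPKM under UV-B against 2.88 in white light. AT2G14880, next to AT2G14878, had 66.1 FPKM under UV-B against 62.8 in white light. AT1G23040, next to AT1G23052, had 28.6 FPKM under UV-B against 25.6 in white light.

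Ratios were spread more widely among short genes in both comparisons. Of members under 200 bp with values above 0 in both groups, 32.0% of 128 had a log2 ratio of at least 1 in size in dd against Col-0, and so did 15.9% of 189 longer members. For UV-B against white light the shares were 28.3% of 127 short members and 11.6% of 181 longer ones. Among protein-coding genes with at least 5 FPKM in a group, the share was 0.544% for dd and 1.67% for UV-B. The median log2 ratio of the members was 0.06 for dd and 0.03 for UV-B, against 0.0035 and 4.7e-05 over all tested entries above 0 in both groups. Length moves with these shares, and its part was not tested.

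**Figure D3:**
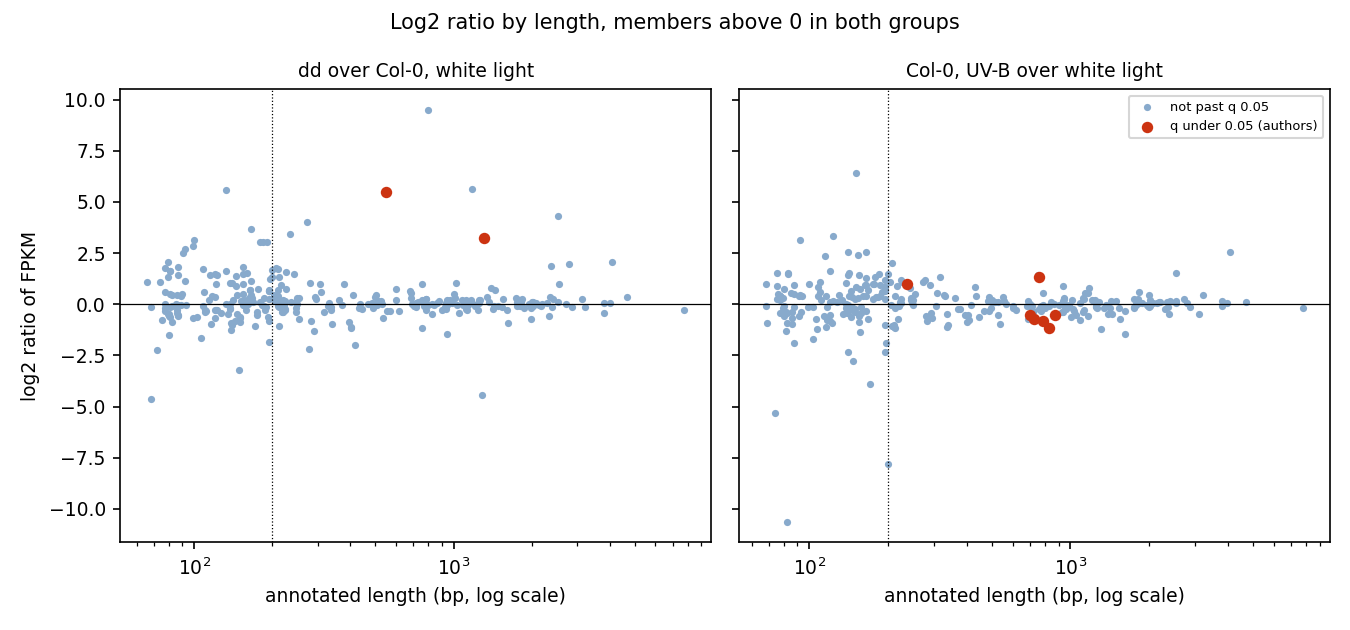
Log2 ratio of FPKM against annotated length in bp (log scale) for members above 0 in both groups, with dd over Col-0 on the left and UV-B over white light on the right, and a dotted line at 200 bp. Red points passed q 0.05 in the authors' deposited tables. Short genes scatter widely around 0 with no red point, while most longer genes lie close to 0. The called genes AT4G09245, AT2G06002 and U2.5 have no ratio for dd and so no red point, and U2.5 is under 200 bp long.

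Some of the largest ratios were not past the threshold. The ncRNA gene AT2G01422 (chromosome 2, 183940 to 184734) had 68.1 FPKM in dd against 0.0934 in Col-0 white light and was listed at 0 under UV-B, with an unadjusted p of 0.237 in the authors' deposited table. It lies next to PIN4, an auxin efflux carrier gene with 38.0 FPKM in dd against 35.8 in Col-0. The transcribed region AT4G06275 had 11.0 FPKM in dd against 0.223 in Col-0 (p = 0.186 in the authors' deposited table). AT5G05145, another transcribed region, had 5.52 FPKM in dd against 0.274 in Col-0 (p = 0.012, q = 0.749 in the authors' deposited table), and AT2G08600 had 53.5 FPKM in dd against 26.6 in Col-0 (p = 0.00305, q = 0.314 in the authors' deposited table). SNOR77, a snoRNA gene, had 19.6 FPKM in dd against 0.412 in Col-0 (p = 0.423 in the authors' deposited table). At the low end for dd stood the snoRNA gene AT1G05563, with 16.8 FPKM in dd against 410 in Col-0, and the antisense RNA gene AT4G00975, with 0.476 FPKM in dd against 10.2 in Col-0. The p-values of these last 2 were 0.418 and 0.0505 in the authors' deposited table. AT1G05563 in dd and SNOR77 in Col-0 lay below the lowest value of entries alone at their locus in their length class. Their loci are shared, and their reads may not be separable. The other 3 of the lowest ratios for dd were those of the snoRNA genes AT2G04955 and AT1G09883 and the antisense lncRNA AT4G05065. AT2G04955 had 8.78 FPKM in dd against 82.8 in Col-0, and AT1G09883 had 151 FPKM in dd against 706 in Col-0. AT4G05065 had 1.05 FPKM in dd against 4.74 in Col-0. AT1G09883 and AT4G05065 lie wholly within protein-coding genes, and their reads may not be separable.

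For UV-B the extremes among the members tested by the authors were nearly all snoRNA genes. The snoRNA gene AT3G08485, outside the tested ones, had 0.0110 FPKM under UV-B and a log2 ratio of -7.82. AT1G05423 (82 bp) had 0.148 FPKM under UV-B against 234 in white light, and AT1G05417 (74 bp) had 3.13 FPKM under UV-B against 125 in white light. Their p-values were 0.348 and 0.473 in the authors' deposited table. AT1G06453 had 2.87 FPKM under UV-B against 42.1 in white light, AT1G06033 had 8.73 FPKM under UV-B against 60.0 in white light, and AT5G07095 had 10.5 FPKM under UV-B against 53.4 in white light. At the high end AT5G01785 (151 bp) had 7.69 FPKM under UV-B against 0.0899 in white light, and AT1G06087 (123 bp) had 69.2 FPKM under UV-B against 6.86 in white light. Both had p-values of about 0.43 in the authors' deposited table. AT5G02665 had 122 FPKM under UV-B against 13.8 in white light, and AT4G08425 had 26.2 FPKM under UV-B against 4.52 in white light. The antisense lncRNA AT3G07805 had 5.33 FPKM under UV-B against 0.924 in white light (p = 0.392 in the authors' deposited table). Under UV-B, AT1G05423, AT1G05417, AT1G06453 and AT1G06033 lay below the lowest value of entries alone at their locus in their length class. So did AT5G01785 in white light. The loci of these genes are shared, and their reads may not be separable. AT1G06087, AT4G08425 and AT3G07805 lie wholly within protein-coding genes, and the same limit holds for them.

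The snoRNA genes held the highest values and, as the largest type, the most zeros by number. Zeros were also common among the 42 miRNA genes, with 11 in dd, 15 under UV-B and 8 in Col-0 white light. AT1G09467 (68 bp; chromosome 1, 27984975 to 27985042) had 6329 FPKM in dd, 6320 under UV-B and 6854 in Col-0 white light, the highest of all members. AT1G74456, in the same cluster, had 1908 FPKM in dd, 1494 under UV-B and 2011 in Col-0 white light. AT2G05765 had 2167 FPKM in dd, 1044 under UV-B and 859 in Col-0 white light (p = 0.0713 for dd in the authors' deposited table). AT2G04965, from the same cluster as AT2G05765, had 1813 FPKM in dd, was listed at 0 under UV-B and had 855 FPKM in Col-0 white light. Of the 168 snoRNA genes, 62 were listed at 0 in dd, 59 under UV-B and 28 in Col-0 white light, and 71 were above 0 in all groups. None was called in either comparison, with 136 tested in dd and 131 under UV-B. Unadjusted p-values under 0.05 were reached by 6 in dd and 4 under UV-B. Over all tested entries, 0.421% were called in dd and 3.85% under UV-B, and 3.71% and 11.7% had such p-values. A protein-coding gene overlapped 50 of the 168 snoRNA genes, and their reads may not be separable.

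Few snoRNA genes carried a name. SNOR108 had 311 FPKM in dd, 555 under UV-B and 373 in Col-0 white light, and was read in all groups. SNOR105 was listed at 0 in dd, with 30.7 FPKM under UV-B and 71.5 in Col-0 white light, and SNOR111 was listed at 0 in dd, with 14.1 FPKM under UV-B and 10.5 in Col-0 white light. U60.2F, which lies within the fibrillarin gene FIB2, had 153 FPKM and SNOR30 had 8.80 FPKM in Col-0 white light, and both were listed at 0 in dd and under UV-B.

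Plant snoRNA genes often lie in clusters that are transcribed as a single precursor. With neighbours at most 500 bp apart placed together, the 287 annotated snoRNA genes formed 70 clusters of up to 6 genes. Of 214 clustered genes, 136 (63.6%) were members, and of 73 genes outside clusters, 32 (43.8%) were. In 27 clusters every gene was a member and in 10 none was. Summed over the 3 genes of the cluster with AT1G09467, the values were 8278 FPKM in dd, 7925 under UV-B and 8917 in Col-0 white light. The cluster of 5 genes that holds AT1G06237 summed to 2408 FPKM in dd, 2793 under UV-B and 2862 in Col-0 white light. In the cluster of AT2G05765 the sums were 3989 FPKM in dd, 1142 under UV-B and 1797 in Col-0 white light. The sums of these clusters thus ranged from similar across groups to more than 3 times apart.

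The snRNA genes lay lower. U6.10p had 254 FPKM in dd, 170 under UV-B and 338 in Col-0 white light. U1.12p, only 69 bp long, was listed at 0 in dd and had 284 FPKM under UV-B and 546 in Col-0 white light (p = 0.0436, q = 0.999 for dd in the authors' deposited table). U2.11 was given with U2.5. The names of the 21 snRNA genes gave 9 of the U1 family, 7 of U2, 3 of U6, and U12 and U4atac. U1 pairs with the 5′ splice site and U6 forms the catalytic core. Among the U1 genes, U1.5 had 66.3 FPKM in dd, 38.7 under UV-B and 48.9 in Col-0 white light. The minor spliceosome, which removes a rare class of introns, was represented by U12 and U4atac. U12 had 4.80 FPKM in dd, 13.5 under UV-B and 6.92 in Col-0 white light, and U4atac had 7.03 FPKM in dd, 6.46 under UV-B and 7.23 in Col-0 white light. The 21 genes had 12 values higher and 8 lower in dd than in Col-0, and 13 higher and 7 lower under UV-B than in white light. U1.4 had 49.5 FPKM in dd, 56.9 under UV-B and 30.2 in Col-0 white light. U1.13p had 23.8 FPKM in dd, 33.6 under UV-B and 20.5 in Col-0 white light, and U1.2 had 25.9 FPKM in dd, 27.8 under UV-B and 11.6 in Col-0 white light. U1.9 had 20.6 FPKM in dd, 17.0 under UV-B and 12.8 in Col-0 white light. U1.10 had 13.4 FPKM in dd, 6.16 under UV-B and 4.69 in Col-0 white light, and U1.8 had 12.2 FPKM in dd and 0 in both other groups. The U1 genes read in all groups thus had their lowest value in Col-0 white light, apart from U1.5. In the U2 family, U2.10 had 15.4 FPKM in dd, 15.1 under UV-B and 12.7 in Col-0 white light, and U2.14 had 10.9 FPKM in dd, 12.0 under UV-B and 6.82 in Col-0 white light. U2.1 had 4.53 FPKM in dd, 12.3 under UV-B and 8.05 in Col-0 white light, and U2.10b/12 had 12.1 FPKM in dd, 17.3 under UV-B and 7.78 in Col-0 white light. U6.5 had 91.1 FPKM in dd, 20.7 under UV-B and 10.4 in Col-0 white light, and U6.4 had 39.5 FPKM under UV-B and 0 in both other groups. U1, U2 and U6 genes exist as near-identical copies, so the level of any single copy is uncertain.

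Only 2 tRNA genes passed the minimum, of 625 annotated. Besides AT5G60285 this was AT4G08345, with 33.6 FPKM in Col-0 white light and 0 in both other groups. The U1-related gene U1.14p, also 86 bp long, had exactly these values. The single rRNA gene AT3G41768, 1808 bp long and on chromosome 3, had 45.6 FPKM in dd, 57.8 under UV-B and 48.9 in Col-0 white light. It lies in a stretch of chromosome 3 with 4 other members. Of these, the transcribed region AT3G06365 (chromosome 3, 14200215 to 14204208) had 328 FPKM in dd, 318 under UV-B and 310 in Col-0 white light, the highest level of any member over 200 bp. The lncRNA AT3G06355 (chromosome 3, 14199575 to 14200076) had 126 FPKM in dd, 105 under UV-B and 93.2 in Col-0 white light (p = 0.013, q = 0.785 for dd in the authors' deposited table). AT3G00650 had 41.9 FPKM in dd, 40.4 under UV-B and 27.7 in Col-0 white light. AT3G41761 had 8.73 FPKM in dd, was listed at 0 under UV-B and had 8.69 FPKM in Col-0 white light. None of these 5 genes was called in either comparison, and the repeated rDNA units of the genome can share reads with them.

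Among miRNA primary transcripts, MIR414 and MIR2936 stood far above the rest. MIR414 (chromosome 1, 25137456 to 25137563) had 1510 FPKM in dd, 2098 under UV-B and 1586 in Col-0 white light. MIR2936 had 1559 FPKM in dd, 1785 under UV-B and 1431 in Col-0 white light, at a locus with 2 other entries. It lies wholly within the protein-coding gene SAG21, and their reads may not be separable. SAG21 had 648 FPKM in dd, 698 under UV-B and 615 in Col-0 white light. In all, 18 of the 42 miRNA genes overlapped a protein-coding gene, and the same limit holds for them. The third highest, MIR8168, was given above with the tRNA gene whose values it shared. No miRNA gene was called in either comparison. Of the 42 genes, 20 were above 0 in all groups, 11 were listed at 0 in dd, 15 under UV-B and 8 in Col-0 white light, and 32 were under 200 bp long.

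The miRNA genes that were read in all 3 groups included several with well known targets. MIR163, whose miRNA acts on methyltransferase genes of secondary metabolism, had 44.3 FPKM in dd, 55.2 under UV-B and 42.1 in Col-0 white light. MIR168a, whose miRNA acts on AGO1, the slicer that carries most plant miRNAs, had 44.1 FPKM in dd, 44.1 under UV-B and 50.6 in Col-0 white light. AGO1 itself had 42.6 FPKM in dd, 42.3 under UV-B and 46.8 in Col-0 white light. MIR408, a copper-responsive gene whose miRNA acts on copper proteins, had 29.0 FPKM in dd, 22.8 under UV-B and 37.4 in Col-0 white light. MIR822 had 13.7 FPKM in dd, 7.56 under UV-B and 16.7 in Col-0 white light (p = 0.0193, q = 0.251 for UV-B in the authors' deposited table). MIR159b, whose miRNA acts on the GAMYB genes MYB33 and MYB65, had 27.1 FPKM in dd, 3.02 under UV-B and 11.4 in Col-0 white light (p = 0.183 for dd and 0.264 for UV-B in the authors' deposited tables).

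Other miRNA genes were read only in some groups. MIR157a, whose miRNA acts on SPL genes of phase change, had 67.1 FPKM in dd, 90.4 under UV-B and 0 in Col-0 white light (p = 0.0709 for dd and 0.0309 for UV-B, with q = 0.999 and 0.329, in the authors' deposited tables). MIR399d, one of the phosphate starvation genes that act on PHO2, had 42.4 FPKM under UV-B and was listed at 0 in dd and in Col-0 white light (p = 0.0913 for UV-B in the authors' deposited table). MIR827, whose miRNA acts on NLA, had 4.61 FPKM in dd, 8.48 under UV-B and 0 in Col-0 white light (p = 0.0309, q = 0.329 for UV-B in the authors' deposited table). MIR162a, whose miRNA acts on DCL1, was listed at 0 in dd, with 41.4 FPKM under UV-B and 15.6 in Col-0 white light. MIR171c and MIR398b, both 116 bp long, each had 21.9 FPKM under UV-B, both were listed at 0 in dd, and in Col-0 white light MIR398b had 16.6 FPKM while MIR171c was listed at 0. These levels lie at or within a few times the lowest value above 0 for their length.

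The miR167 genes, whose miRNA acts on ARF6 and ARF8, were mixed. MIR167a had 16.1 FPKM in dd, 0 under UV-B and 7.79 in Col-0 white light, and MIR167b had 30.9 FPKM in dd, 0 under UV-B and 20.4 in Col-0 white light. MIR167d, at 377 bp the longest member of this type, had 6.37 FPKM in dd, 2.70 under UV-B and 3.24 in Col-0 white light. MIR157c had 14.5 FPKM in dd, 25.3 under UV-B and 14.0 in Col-0 white light, while MIR156a and MIR157b were read only in Col-0 white light, at 13.8 and 5.21 FPKM. MIR165a, whose miRNA acts on the leaf polarity genes PHB and REV, had 26.3 FPKM under UV-B and was listed at 0 in dd and in Col-0 white light. MIR169a had 10.0 FPKM in dd, 0 under UV-B and 3.40 in Col-0 white light, and MIR169m had 2.44 FPKM in dd, 2.24 under UV-B and 5.11 in Col-0 white light. MIR171b was read only in Col-0 white light, at 8.49 FPKM, and MIR394b had 27.3 FPKM in dd, 0 under UV-B and 14.0 in Col-0 white light.

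Among miRNA genes with fewer known roles, MIR4228 had 90.6 FPKM in dd, 82.9 under UV-B and 112 in Col-0 white light, and MIR775 had 51.1 FPKM in dd, 69.7 under UV-B and 63.1 in Col-0 white light. MIR834 had 48.9 FPKM in dd, 38.5 under UV-B and 40.2 in Col-0 white light, and MIR3932b had 43.6 FPKM in dd, 61.7 under UV-B and 80.2 in Col-0 white light. These 4 were read in every group with no p under 0.05 in the authors' deposited tables. MIR2112 had 7.74 FPKM in dd, 28.7 under UV-B and 5.42 in Col-0 white light, and MIR844 had 21.1 FPKM in dd, 7.22 under UV-B and 2.59 in Col-0 white light. MIR838, which lies within DCL1, had 6.25 FPKM in dd, 7.36 under UV-B and 1.85 in Col-0 white light. MIR841a had 6.65 FPKM in dd, 2.30 under UV-B and 2.60 in Col-0 white light, and MIR825 had 3.70 FPKM in dd, 5.77 under UV-B and 3.00 in Col-0 white light. MIR8170 had 9.57 FPKM in dd, 0 under UV-B and 1.15 in Col-0 white light. Read only in dd were MIR781a at 59.4 FPKM, MIR8181 at 17.0 and MIR5656 at 7.94. Read only in Col-0 white light were MIR5657 at 31.7 FPKM, MIR5658 at 16.5 and MIR413 at 12.3.

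**Figure D4:**
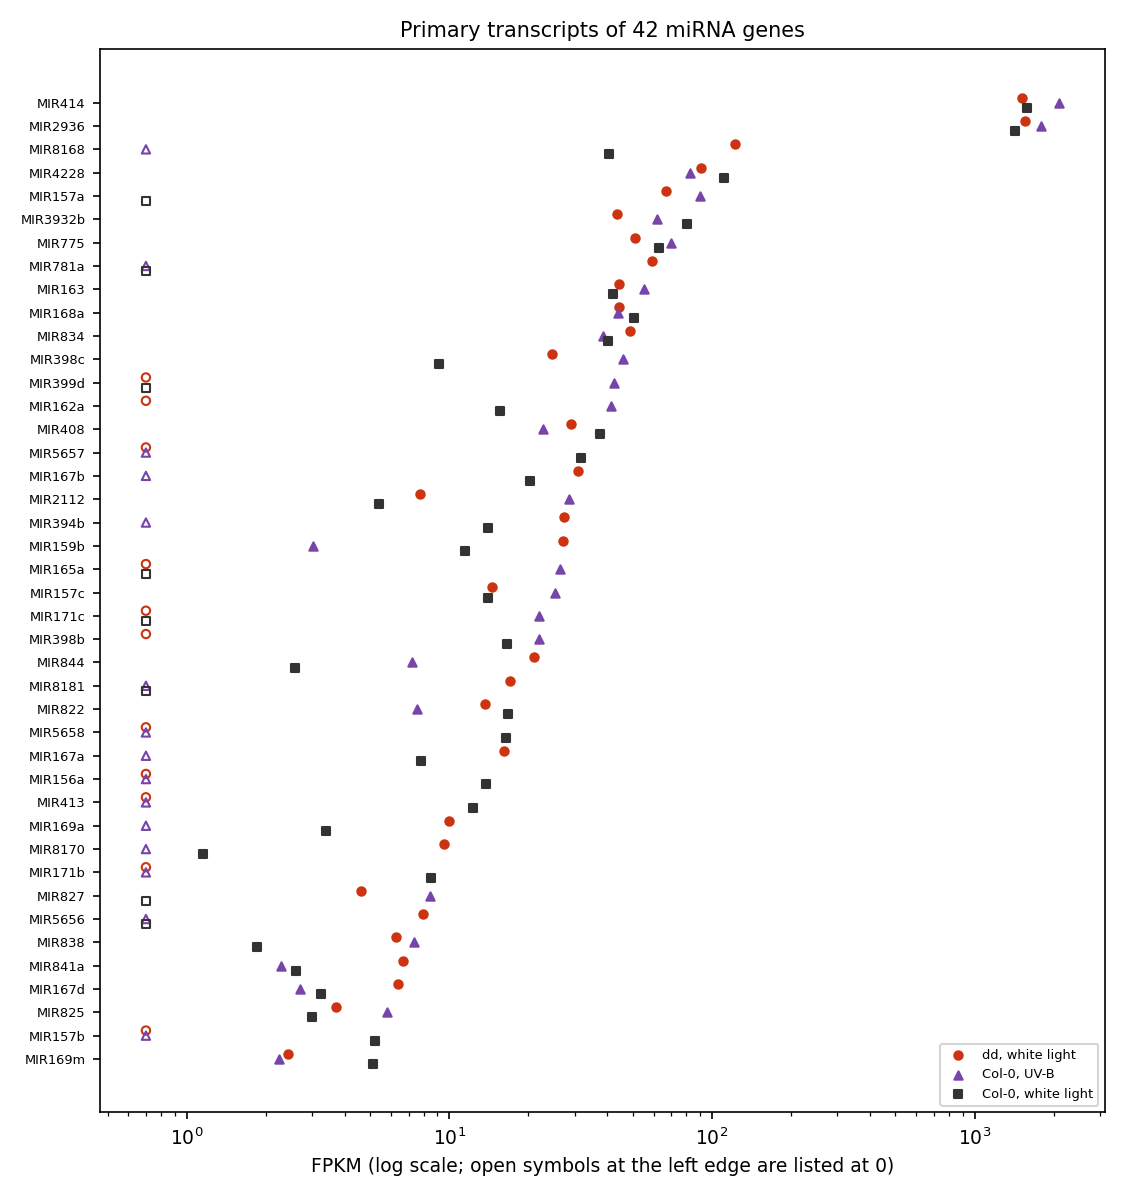
FPKM (log scale) of the 42 miRNA primary transcripts, ordered by their highest value, with circles for dd, triangles for Col-0 under UV-B and squares for Col-0 in white light. Open symbols at the left edge are listed at 0. MIR414 and MIR2936 lie above 1000 FPKM in every group, while many genes below 130 FPKM are at 0 in at least 1 group.

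The 5 TAS genes that passed the minimum had levels within 1.5 times of each other across the groups. TAS3 (chromosome 3, 5861491 to 5862437), whose siRNAs act on the auxin response factor genes ARF2, ARF3 and ARF4, had 32.8 FPKM in dd, 35.6 under UV-B and 29.0 in Col-0 white light. TAS2 had 19.2 FPKM in dd, 15.1 under UV-B and 19.4 in Col-0 white light, and TAS1A had 14.2 FPKM in dd, 11.9 under UV-B and 15.6 in Col-0 white light. TAS1B had 10.2 FPKM in dd, 11.1 under UV-B and 10.5 in Col-0 white light, and TAS1C had 10.3 FPKM in dd, 9.53 under UV-B and 9.77 in Col-0 white light. TAS1 and TAS2 siRNAs act mainly on genes of pentatricopeptide repeat proteins. None of the 5 TAS genes was called in either comparison.

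Among the other genes typed ncRNA, GUT15 (chromosome 2, 7994941 to 7997239), named for its unstable transcript, was the highest in dd, with 135 FPKM in dd, 108 under UV-B and 130 in Col-0 white light. AT3G06125 had 125 FPKM in dd, 120 under UV-B and 102 in Col-0 white light. Neither was called in either comparison. AT5G03285 had 98.6 FPKM under UV-B against 46.9 in white light (p = 0.0111, q = 0.173 in the authors' deposited table). AT4G13495 had 58.4 FPKM in dd against 77.5 in Col-0 (p = 0.00685, q = 0.551 in the authors' deposited table), at a locus with 6 other entries. Over the 61 genes of this type, 41 values were lower and 20 higher under UV-B than in white light, with a median log2 ratio of -0.12 over the 58 above 0 in both. Over the 20876 entries tested in at least 1 of the tables, 10328 values were higher and 10484 lower under UV-B, and 10492 were higher and 10335 lower in dd. In dd, 38 values were higher and 23 lower than in Col-0, with a median of 0.06. Calls within the type were 1 higher and 1 lower of 61 tested in dd, and 1 higher and 5 lower of 59 tested under UV-B, in the authors' deposited tables. The shares called lower over all tested entries were 0.157% in dd and 1.81% under UV-B.

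The transcribed regions had a median highest value of 15.3 FPKM and the other lncRNAs one of 7.42. After AT3G06365, the highest transcribed regions were AT5G00590, with 178 FPKM in dd, 272 under UV-B and 231 in Col-0 white light, and AT1G04107, with 165 FPKM in dd, 141 under UV-B and 169 in Col-0 white light. Of the 45 transcribed regions, 2 were called higher in dd and none under UV-B in the authors' deposited tables. The shares over all tested entries were 0.264% called higher in dd and 3.85% called in either direction under UV-B. The second highest of the 21 lncRNAs, AT5G06845, had 42.6 FPKM in dd, 55.2 under UV-B and 42.2 in Col-0 white light (p = 0.0499, q = 0.427 for UV-B in the authors' deposited table). AT5G09735 had 15.6 FPKM under UV-B against 6.27 in white light (p = 0.0236, q = 0.283 in the authors' deposited table). The lncRNA called higher under UV-B was AT2G08820.

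Antisense lncRNAs were mostly near the minimum, with a median highest value of 7.99 FPKM. The highest was AT3G07315, with 62.0 FPKM in dd, 68.7 under UV-B and 60.7 in Col-0 white light, within HTB9, a histone H2B gene with 198 FPKM in dd, 193 under UV-B and 208 in Col-0 white light. AT4G38932 followed with 49.1 FPKM in dd, 42.0 under UV-B and 52.7 in Col-0 white light, and AT2G26355 with 30.4 FPKM in dd, 28.4 under UV-B and 30.6 in Col-0 white light. Of the 55 genes, 52 overlapped a protein-coding gene in the RefSeq table, and over the 44 with a ratio the median level in Col-0 white light was 0.712 times that of the partner. None of the 55 was called in either comparison, with 53 tested in dd and 54 under UV-B. An unadjusted p under 0.05 was reached by none in dd and 2 under UV-B. Over all tested entries, 0.421% were called in dd and 3.85% under UV-B, and 3.71% and 11.7% had such a p.

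Of the 52 antisense lncRNAs with a partner, 2 had a partner called under UV-B, both higher, in the authors' deposited table. Over all tested entries 3.85% were called under UV-B, so nothing is read from this count. UGT75B1, a glucosyltransferase gene, had 44.4 FPKM in dd, 68.6 under UV-B and 41.5 in Col-0 white light (q = 0.00249 for UV-B in the authors' deposited table). AT1G05562, which lies wholly within it, had 6.79 FPKM in dd, 7.02 under UV-B and 6.90 in Col-0 white light. AT4G14090 had 7.03 FPKM in dd, 19.3 under UV-B and 6.83 in Col-0 white light (q = 0.00249 for UV-B in the authors' deposited table). Its antisense lncRNA AT4G06175 had 7.57 FPKM in dd, was listed at 0 under UV-B and had 3.98 FPKM in Col-0 white light. Across pairs above 0 in both groups, the ratios had the same sign in 21 of 42 pairs for dd and 25 of 40 for UV-B. Pearson's r over these gene pairs was -0.01 for dd and 0.07 for UV-B. It is given as a description, since both genes of a pair share libraries and may share reads. The largest partner ratios under UV-B came from partners at low levels, and these enter r too. The sources used here do not say whether the counting used strand, so reads of an antisense gene and its partner cannot be told apart.

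**Figure D5:**
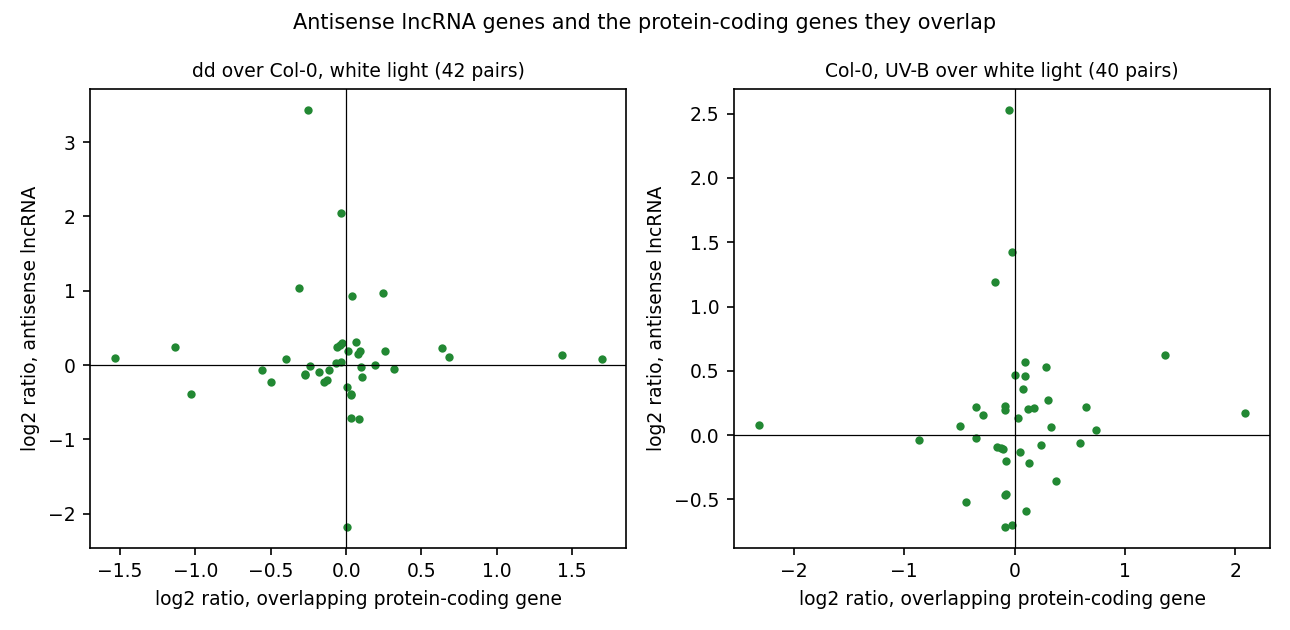
Log2 ratio of FPKM of each antisense lncRNA against that of the protein-coding gene it overlaps, for 42 pairs in dd over Col-0 (left) and 40 pairs in UV-B over white light (right). Each point is 1 pair with values above 0. Points fill all 4 quadrants. The partner ratios largest in size under UV-B, -2.32 and 2.09, belong to pairs with antisense ratios of 0.08 and 0.17. The next, 1.36, belongs to a pair with an antisense ratio of 0.62. These partners were at low levels. CYP712A1 had 0.264 FPKM under UV-B against 1.33 in Col-0 white light. EXO70H6 had 0.103 FPKM against 0.0243, and AT5G36001 had 0.0640 FPKM against 0.0251.

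Of the 7 antisense RNAs, only AT2G09735 exceeded 20 FPKM, with 111 FPKM in dd, 0 under UV-B and 15.5 in Col-0 white light (p = 0.437 for dd in the authors' deposited table). It is 99 bp long and shares its locus with 3 other entries. AT2G09395 had 20.0 FPKM in Col-0 white light and was listed at 0 in both other groups, and AT2G08330 had 18.8 FPKM in dd, 10.4 under UV-B and 17.5 in Col-0 white light. All 7 overlapped a protein-coding gene, and none was called in either comparison.

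The genes that make, process and degrade non-coding RNAs were compared as lists. None of the 11 matched genes of miRNA maturation, the 7 of the trans-acting siRNA pathway, the 7 of the RNA exosome, the 4 of the XRN group or the 3 of nonsense-mediated decay was called in either comparison in the authors' deposited tables. The 10 snoRNP and snRNP protein genes, the 3 RNase P protein genes PRORP1, PRORP2 and PRORP3 and the 5 genes of polymerases III, IV and V also had no call. Over all tested entries, 0.421% were called in dd and 3.85% under UV-B. DCL1 had 6.14 FPKM in dd, 5.44 under UV-B and 5.53 in Col-0 white light. FIB2, a fibrillarin gene of box C/D snoRNPs, had 50.0 FPKM under UV-B against 37.0 in white light (p = 0.0089, q = 0.147 in the authors' deposited table). NRPD1, the largest subunit of polymerase IV, had 2.53 FPKM in dd against 1.82 in Col-0 (p = 0.034, q = 0.999 in the authors' deposited table). List medians of the log2 ratio ran between -0.10 and 0.04 for dd and between -0.24 and 0.10 for UV-B.

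Known targets of miRNAs and trans-acting siRNAs had 3 calls, all under UV-B. Of the 46 matched targets, 42 were tested in dd with no call, and 43 under UV-B with 2 higher and 1 lower in the authors' deposited table, where 0.421% of all tested entries were called in dd and 3.85% under UV-B. Of these 42, none had an unadjusted p under 0.05 in dd, against 3.71% of all tested entries, and 7 of the 43 did under UV-B, against 11.7% of all tested entries. CSD1, the cytosolic copper/zinc superoxide dismutase and a target of miR398, had 204 FPKM under UV-B against 104 in white light (q = 0.00249 in the authors' deposited table). CSD2, its chloroplast counterpart and also a miR398 target, had 75.5 FPKM under UV-B against 39.3 in white light (q = 0.00249 in the authors' deposited table). Their copper chaperone CCS had 27.4 FPKM under UV-B against 20.2 in white light (q = 0.185 in the authors' deposited table). MIR398c had 24.7 FPKM in dd, 45.9 under UV-B and 9.12 in Col-0 white light (p = 0.333 for UV-B in the authors' deposited table), and MIR398b was given above. Copies of this family could share reads.

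The sulfate transporter gene SULTR2;1, a target of miR395, had 26.3 FPKM under UV-B against 38.7 in white light (q = 0.0144 in the authors' deposited table). PHO2, the target of miR399, had 25.9 FPKM under UV-B against 20.3 in white light (q = 0.277 in the authors' deposited table), and NLA, the target of miR827, had 19.0 FPKM under UV-B against 14.2 in white light (q = 0.465 in the authors' deposited table). SPL3, a target of the miR156 and miR157 families, had 4.51 FPKM under UV-B against 7.67 in white light (q = 0.115 in the authors' deposited table). None of the TAS3 targets ARF2, ARF3 and ARF4 was called in either comparison. ARF2 had 53.3 FPKM in dd, 48.7 under UV-B and 50.7 in Col-0 white light, and ARF4 had 12.0 FPKM in dd, 13.1 under UV-B and 11.0 in Col-0 white light. MYB33, the target of miR159, had 6.58 FPKM in dd, 7.35 under UV-B and 6.72 in Col-0 white light.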

How the data were processed

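RNA-seq values of 3 groups were analysed, from 6 of 16 samples. The 8 bisulfite samples and dd under UV-B were not analysed here. Tools named in the submitters' processing notes are Trimmomatic, BSMAP, HISAT2 and Cufflinks, with the build TAIR10. The deposited levels are in FPKM, as the Cufflinks layout of the headers shows, with 1 value per group that the authors pooled over 2 replicates. The p-values and q-values are the authors' deposited ones and were not recomputed, and calls are q under 0.05. The sources used here state neither strand use nor depth. Log2 ratios were taken of dd or UV-B over the white-light Col-0 value, only where both were above 0 and without a pseudocount. The Col-0 values of the dd table are 1.01 times those of the UV-B table; each comparison uses its own. Coordinates are the tables' locus ranges, written 1-based. Names, overlaps and neighbours come from the RefSeq table of TAIR10.1, which matched all 423 genes.

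The members and the gene lists were chosen with earlier results of these data known. Of 120 list entries, 96 genes were matched, 22 entries were not and 2 repeated a gene. Another check showed 5 whose symbol RefSeq gives to another gene or to several, and these were corrected or dropped after matching. Named are all called members, the 3 highest of each type, the genes nearest the minimum, and miRNA, TAS, snRNA and snoRNA genes with names. So are the 5 highest and 5 lowest ratios per comparison among members tested by the authors and above 0 in both groups. Others were chosen after their values were seen. Only counts, medians and ratios were computed, with Python, and the counting was tested on simulated data. No sequences are given.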

Additional observations from a re-analysis of the deposited data

How the results depend on the processing

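No replicate could be left out, and no paired analysis was possible because the tables hold 1 pooled value per group. Of 42 alternatives for counts and medians, 25 stayed within 1.5 times the count or 0.05 of the median. With a minimum of 1 FPKM there were 908 members, without overlapping loci 202 and without genes under 200 bp 193. With a minimum of 10 FPKM, 1 member was called higher and 1 lower in dd. Without genes under 200 bp, 1 was called lower in dd. Without overlapping loci, 1 was called higher under UV-B. At q 0.01, 0 members were called in dd in either direction, and 1 higher and 1 lower under UV-B. The smallest q of any entry in the dd comparison was 0.0138, so no entry of any type could be called there at q 0.01. With a log2 change of at least 1 in size, 1 higher and 1 lower remained under UV-B. With a pseudocount of 1 FPKM the dd median was 0.00 and the UV-B median -0.064. These medians cover all 423 members, also those listed at 0. The main medians cover the 317 members above 0 in both groups for dd and 308 for UV-B. The UV-B median was -0.058 without overlapping loci and -0.036 without short genes. Its sign thus differed between settings that hold different members, and why these members differ was not tested. The direction of the 9 called genes with a ratio could not change in these checks, so nothing is read from it. A pseudocount never reverses a ratio. The protein-coding medians subtracted, 0.0066 for dd and 0.013 for UV-B, were far smaller than the ratios of these genes. AT4G09245, AT2G06002 and U2.5 have no ratio.

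The higher lowest values in dd and under UV-B limit what low and short genes can show, and the single value per group gives no error. Levels of genes with an overlapping entry or a near-identical copy, such as U1, U2 and U6 genes, are uncertain.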
